A study of Mus musculus with 20 samples.

Results

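The transcripts of the quadriceps, the large extensor muscle of the thigh, were counted in 10 muscles of old mice that had received saline alone, out of 20 muscles in the series. These 10 muscles were taken by their labels, which number them control 1 to control 10, and no measured value chose them. All came from male wild-type C57BL/6J mice of 26-28 months, carrying no transgene or deletion, and each had received 50 µL of 0.9% sodium chloride directly into the muscle. The mice had fasted for 4 h, and the tissue was collected 3 h after the injection. Muscles of young mice and muscles that had received no injection were not analysed here, so the values describe injected, fasted, old muscle and cannot be divided among age, fasting and injection. The label of the extraction speaks of myotubes, which are muscle cells grown in culture, whereas the label of the source and the study's methods name tissue. Since the mice are the only replicates and there is no second group, the values below are described by their level and by their spread between muscles.

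A library held between 13286983 and 22987237 counts, with a median of 17016200, and no pair of columns was identical. Levels are given as CPM, the count of a gene divided by all counts of its library and scaled to the same total for every library. Of the 55416 gene identifiers, 9622 had a mean of at least 5 CPM. On the log2 scale the libraries correlated with each other at 0.894 to 0.981 over these genes. Control 2 was the least like the others, with a median correlation of 0.908, and control 3 and control 9 followed at 0.936 and 0.938. Libraries 1 to 5 also stood apart from libraries 6 to 10 in their share of Ttn, and no source used here names what the numbers stand for. Of all 9622 genes, 8.36% were higher in every library from 1 to 5 than in any from 6 to 10, and 0.249% were lower, which is the background for such genes named below.

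A limb muscle is built of myofibres, long multinucleated cells whose sarcomeres shorten when myosin heads pull on actin. Fibres are classed by the myosin heavy chain they make. Slow fibres carry Myh7 and rely on respiration, whereas fast fibres carry Myh2, Myh1 or Myh4, in rising order of speed and of reliance on glycolysis. Between the fibres lie satellite cells, which are the muscle stem cells, together with fibro-adipogenic progenitors, vessels, nerve and immune cells, and all of them contribute RNA to a whole-muscle library.

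The reads were dominated by the contractile apparatus of fast fibres. Ttn, which encodes the giant spring protein titin, took 14.3% ± 5.52 (SD, n = 10) of all counts. The next most read genes were Myh4 at 38755 ± 10112 CPM, Atp2a1, the calcium pump of the fast fibre's sarcoplasmic reticulum, at 27052 ± 5148 CPM, and Neb, which encodes the thin filament ruler nebulin, at 20870 ± 6147 CPM. Acta1, the skeletal muscle actin, followed at 18989 ± 1310 CPM, and Ckm, the muscle creatine kinase, at 15467 ± 1558 CPM. Aldoa, an enzyme of glycolysis, lay at 11488 ± 1048 CPM. Together, the 10 most read genes held 31.4% ± 6.39 of the counts and the 100 most read genes 53.7% ± 4.19. The share of the 10 genes did not overlap between libraries 1 to 5, at 20.5% to 30.2%, and 6 to 10, at 31.8% to 38.7%. Ttn is among these genes, and its own share did not overlap either. The gap in their summed share is thus not separate from that of Ttn. Protein-coding genes as a whole, which also include Ttn, held 95.7% ± 1.20, with 93.6% to 95.3% in the first range and 96.4% to 96.9% in the second.

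Long transcripts collect more reads, so levels of different genes were compared per length, as TPM, which divides each count by the merged exon length before scaling. On that scale Ttn no longer led, at 4842 ± 2483 TPM. Acta1 was the most abundant transcript at 46362 ± 7744 TPM. It was followed by mt-Co1, a subunit of cytochrome oxidase encoded in the mitochondrial genome, at 42455 ± 19703 TPM. Pvalb, the calcium buffer parvalbumin of fast fibres, lay at 31070 ± 16810 TPM, and Atp2a1 at 29793 ± 9779 TPM. These neighbours in the order lay within each other's SD. Myh4 reached 24861 ± 9396 TPM.

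Some of the most abundant transcripts were steady and others were not. Acta1 ranged only from 17094 to 21256 CPM, with a coefficient of variation (CV, the SD divided by the mean) of 0.069. The CVs of Aldoa and Ckm were 0.091 and 0.101. Pvalb, in contrast, ranged from 3604 CPM in control 10 through a median of 7167 CPM to 21683 CPM in control 2, with 21073 CPM in control 3. The other 8 muscles had at most 8804 CPM, so controls 2 and 3 stood apart.

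**Figure D1:**
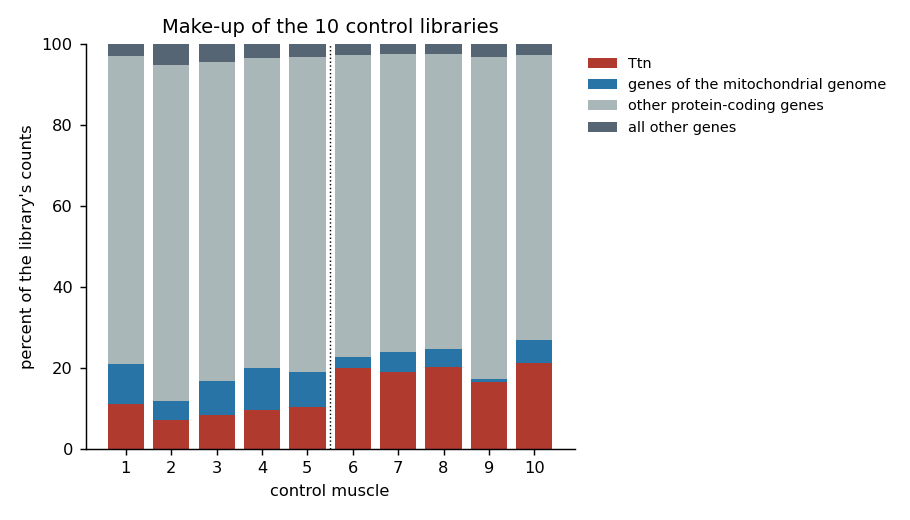
Stacked bars give, for each control muscle, the percent of the library's counts on Ttn, on the genes of the mitochondrial genome, on all other protein-coding genes and on all other genes. The dotted line parts libraries 1 to 5, where Ttn held 7.02% to 11%, from libraries 6 to 10, where it held 16.4% to 21.1%.

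The 11 genes of the glycolysis list summed to 30006 ± 2483 CPM, with a CV of the sum of 0.083, and all of them exceeded 5 CPM. Within that list the steadiest gene was Aldoa and the most variable was Pgam2, the muscle phosphoglycerate mutase, with a CV of 0.417. Pgam2 was high in control 2, at 2053 CPM, and in control 3, at 1591 CPM, and lay at 673 to 1033 CPM in the other 8 muscles. The 8 genes of the myofibre list summed to 213112 ± 59894 CPM and were lowest in control 2 and highest in control 10. The sums in controls 1 to 5, at most 183795 CPM, did not overlap those in controls 6 to 10, at least 234233 CPM. Ttn is in this list and was the only 1 of its 8 genes whose ranges did not overlap. The median over the 8 genes of the ratio of mean CPM, controls 1 to 5 over 6 to 10, was 0.98.

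The mitochondrial genome encodes 13 subunits of the respiratory chain along with ribosomal and transfer RNAs. Its genes held 6.11% ± 3.10 of the counts, and this share varied more than that of glycolysis. By muscle, from control 1 to control 10, the share was 9.96%, 4.76%, 8.39%, 10.3%, 8.66%, 2.89%, 5.00%, 4.5%, 0.977% and 5.66%. Control 9 was far below every other muscle, and control 6 was the next lowest. In control 9, mt-Co1 fell to 2773 CPM against a median of 17391 CPM over all 10 muscles, and mt-Nd2, a subunit of complex I, to 404 CPM, with 2287 CPM in the next lowest muscle. The nuclear genes of glycolysis in control 9 summed to 27276 CPM, also the lowest of the 10, with 34163 CPM as the highest sum.

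The subunits of the mitochondrial genome were far from equal in the table. By mean TPM, mt-Co1, mt-Nd1, mt-Cytb and mt-Nd2 lay at 20023 or more, whereas mt-Co2 lay at 152, mt-Atp6 at 170, mt-Atp8 at 195 and mt-Nd3 at 91.5. The nuclear genome holds near-identical copies of parts of the mitochondrial genome, and reads that match both places can be dropped or divided by the counting, so levels of genes with such a copy are uncertain. Stretches of 120 bases from GENCODE M21 transcripts are shown to make this visible, in lower case with the differing bases in capitals. Gm10925, a pseudogene on chromosome 1, was identical to mt-Atp6 over all 678 of its bases, and the same letters stand at chrM:7927-8046 (plus strand) and chr1:24614532-24614651 (minus strand) of GRCm38. Gm13339, on chromosome 2, matched mt-Nd2 at 96.7% over 510 bases, and the stretch shown differs in 3 bases between chrM:4442-4561 (plus strand) and chr2:22590414-22590533 (minus strand).
mt-Atp6 and Gm10925: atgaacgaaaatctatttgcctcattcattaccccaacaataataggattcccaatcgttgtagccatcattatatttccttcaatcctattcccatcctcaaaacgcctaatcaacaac
mt-Nd2: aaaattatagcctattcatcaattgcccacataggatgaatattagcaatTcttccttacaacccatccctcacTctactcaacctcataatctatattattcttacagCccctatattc
Gm13339: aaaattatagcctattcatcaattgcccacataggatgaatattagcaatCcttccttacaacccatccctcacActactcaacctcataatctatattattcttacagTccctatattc

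Both the nuclear copies and the mitochondrial genes were lowest in control 9. Gm10925 had 55.3 ± 43.4 CPM and mt-Atp6 34.0 ± 27.8 CPM, with 5.94 and 3.76 CPM in control 9. Gm13339 ranged from 0.353 CPM in control 9 to 24.6 CPM in control 3. Which of the places these reads came from cannot be told from the table. For mt-Nd2, with 5853 ± 3303 CPM, the copy amounts to few reads, while for mt-Atp6 it holds more reads than the gene itself.

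Most myosin heavy chain RNA was that of the fastest fibre class. Of the 4 adult myosin heavy chains, compared per length, Myh4 held 91.4% ± 7.45, Myh1 6.70% ± 5.61, Myh2 1.81% ± 1.98 and Myh7 0.059% ± 0.098. Myh4 was the leading chain in all 10 muscles, from 75.4% in control 2 to 98.0% in control 6. The chains are similar in sequence, so reads shared between them may be dropped or divided, and their shares are approximate.

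**Figure D2:**
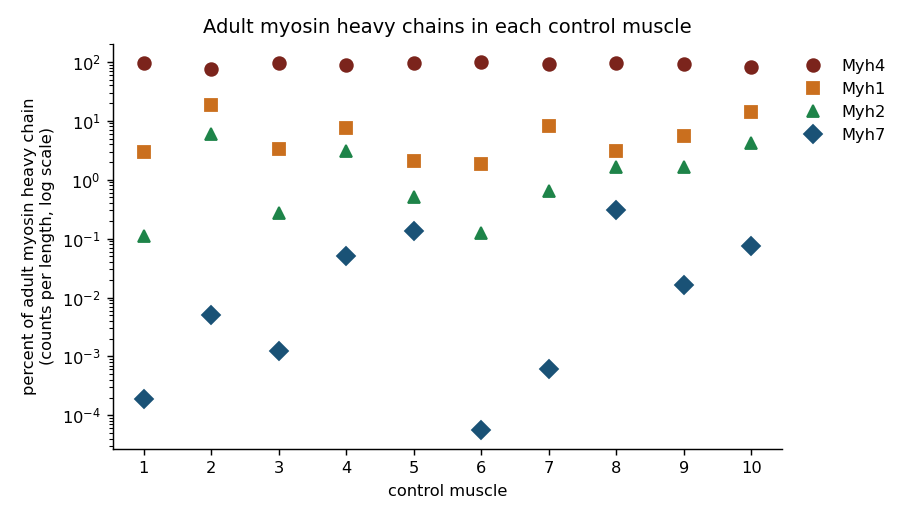
Each point is the percent of adult myosin heavy chain, from counts per length, that 1 of the 4 chains held in 1 control muscle, on a log scale. Myh4 stays between 75.4% and 98.0%, whereas Myh7 spans from 5.55e-05% in control 6 to 0.309% in control 8.

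The minor chains set the muscles apart. Myh2 had 54.7 CPM in control 1, 82.4 in control 6 and 94.2 in control 3, and 2023 CPM in control 2 and 2007 in control 10, with a median over the 10 muscles of 666 CPM. Myh1 ran from 925 CPM in control 5 to 5688 in control 2 and 5963 CPM in control 10. Control 2 and control 10 thus held the most of both intermediate chains, and they lie in different ranges of library number. Several other genes of the fast list were steadier: Tnnt3, fast troponin T, had a CV of 0.139, Mybpc2, fast myosin binding protein C, 0.154, and Actn3, the fast fibre's actinin, 0.161. All 13 genes of the fast fibre list exceeded 5 CPM, and their sum was 115202 ± 11676 CPM.

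Slow fibre genes were scarce and patchy. Myh7 had 220 CPM in control 8, 81.5 in control 5, 44.2 in control 10, 24.7 in control 4 and 11.9 in control 9. In control 2 it had 2.11 CPM, and in controls 1, 3, 6 and 7 at most 0.515 CPM, where the counts were too few for a fold. The same muscles led for Myl3, a slow light chain, with 52.4 CPM in control 8, 34.4 in control 5 and 32.6 in control 10, and controls 1, 3, 6 and 7 had at most 0.284 CPM. Myl2, the slow regulatory light chain, ran from 0.056 CPM in control 1 to 35.5 CPM in control 8. Tnnt1, slow troponin T, and Tnnc1, slow troponin C, were also highest in control 8, at 24.2 and 20.4 CPM, followed by control 5, at 12.2 and 19.7 CPM. Tnni1, slow troponin I, reached 19.6 CPM in control 8 and had a mean of 4.72 CPM, below the limit of 5 CPM that the other 8 genes of the list passed.

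Genes of the slow list that other fibres also use did not follow this pattern so steeply. Atp2a2, the slow calcium pump, ranged from 55.4 to 193 CPM, Tpm3, a tropomyosin, from 17.9 to 62.9 CPM, and Casq2, a calsequestrin, from 3.22 to 18.4 CPM. The whole list summed to a median of 190 CPM and reached 644 CPM in control 8. The median CV of its 8 genes above 5 CPM was 1.22, against 0.237 over all 9622 genes. Slow genes varied in both ranges of library number, since high and near-zero muscles occurred among controls 1 to 5 and among controls 6 to 10. The heart also uses several of these slow genes. Of the cardiomyocyte list Myh6 had at most 1.88 CPM, Tnnt2 at most 6.00 CPM, and Nppa had counts in control 2 alone.

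Because these slow genes were high and low in the same muscles, the 250 bases before the listed start sites of 4 of them are shown. They come from RefSeq promoters on GRCm38.p6, and those of Myl2 and Tnni1 were not searched. The RefSeq start nearest the GENCODE gene boundary was used. Counted along the chromosome, it lay 21817 bases from that boundary for Myl3 and -407 bases for Tnnt1. Capitals mark CATTCC on either strand, a motif known from muscle gene promoters, which also stood in 12.6% of all 32851 promoter windows of the same length. It occurred in 3 of the 4 windows, 2 times in that of Myl3 and 1 time each in those of Myh7 and Tnnc1. The motif CANNTG, to which myogenic factors bind, occurred in all 4 and in 66.2% of all windows, and TATAAA, searched on both strands, in that of Tnnt1 and in 12.4% of all windows. No matches of different motifs overlapped in these windows. The windows lie at chr14:54994627-54994876 (Myh7, minus strand), chr9:110763428-110763677 (Myl3, plus strand), chr14:31208062-31208311 (Tnnc1, plus strand) and chr7:4515976-4516225 (Tnnt1, minus strand).
Myh7: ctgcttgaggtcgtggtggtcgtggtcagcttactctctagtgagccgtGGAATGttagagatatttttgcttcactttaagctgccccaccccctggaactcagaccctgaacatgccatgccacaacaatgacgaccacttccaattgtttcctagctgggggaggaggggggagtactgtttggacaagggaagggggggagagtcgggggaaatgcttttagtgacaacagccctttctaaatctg
Myl3: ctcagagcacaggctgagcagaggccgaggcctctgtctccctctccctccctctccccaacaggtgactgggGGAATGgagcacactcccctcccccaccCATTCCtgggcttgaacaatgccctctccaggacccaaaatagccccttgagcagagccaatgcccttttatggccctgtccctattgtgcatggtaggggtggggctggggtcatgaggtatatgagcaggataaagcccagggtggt
Tnnc1: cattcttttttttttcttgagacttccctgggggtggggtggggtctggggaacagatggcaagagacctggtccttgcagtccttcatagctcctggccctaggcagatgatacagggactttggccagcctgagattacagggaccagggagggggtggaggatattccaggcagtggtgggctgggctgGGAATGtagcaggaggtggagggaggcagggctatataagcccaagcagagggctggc
Tnnt1: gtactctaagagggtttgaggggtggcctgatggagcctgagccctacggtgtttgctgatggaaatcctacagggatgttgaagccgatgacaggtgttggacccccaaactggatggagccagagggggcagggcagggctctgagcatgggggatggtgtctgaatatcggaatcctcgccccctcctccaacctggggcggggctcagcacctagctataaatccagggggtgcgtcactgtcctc

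Cells other than myofibres were present at low levels, and for every such marker fewer cells of a type and less RNA per cell cannot be told apart. The endothelial list was the steadiest of them, with a CV of its sum of 0.138. This list, which includes the junction proteins Pecam1 and Cdh5, summed to 189 ± 26.1 CPM. The list of smooth muscle and pericytes summed to 289 ± 68.3 CPM, most of it Rgs5, a pericyte regulator, at 189 ± 52.2 CPM. Satellite cell genes summed to 36.3 ± 6.89 CPM, but only Cdh15 and Chodl of the 6 exceeded 5 CPM. Pax7, the defining transcription factor of that cell, had 2.07 ± 0.85 CPM and Myf5 1.57 ± 0.67 CPM. Schwann cell genes, such as the myelin gene Mbp, summed to 25.7 ± 4.68 CPM.

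Connective tissue varied more. The fibro-adipogenic list summed to 792 to 1110 CPM in controls 1 to 5 and to 192 to 487 CPM in controls 6 to 10, so the ranges did not overlap. Dcn, the matrix proteoglycan decorin, had a median of 161 CPM, with 573 CPM in control 4 and 507 CPM in control 5. Col1a1 and Col3a1, the fibrillar collagens, were highest in control 2, at 297 and 373 CPM, and lowest in control 8, at 10.4 and 15.7 CPM. Pdgfra, the receptor that defines these progenitors, had 69.1 to 104 CPM in controls 1 to 5 and 24.6 to 45.9 CPM in controls 6 to 10. Tendon genes were lowest in control 8 as well: Fmod, the matrix protein fibromodulin, had 4.70 CPM there, 28.4 CPM in the next lowest muscle and 142 CPM in control 5. The tenocyte list summed to 20.6 CPM in control 8 and to 69.7 CPM or more in the other 9 muscles.

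The adipocyte list summed to 336 CPM in control 4, 221 CPM in control 3 and 135 CPM in control 9, with a median of 79.3 CPM. Adipoq, the fat cell hormone adiponectin, had 42.3 CPM in control 4, 15.5 in control 3 and 5.05 to 10.6 in the other 8 muscles. Cidec and Plin1, which coat lipid droplets, peaked in control 4 as well, at 45.2 and 41.7 CPM. Without that muscle the CV of Adipoq was 0.407 in place of 0.967. The mast cell list was also highest in control 4, at 35.6 CPM, against a median of 7.22 CPM, with none of its 4 genes reaching a mean of 5 CPM. Controls 6 to 10 had at most 5.94 CPM and controls 1 to 5 at least 8.50 CPM.

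Among immune cells, macrophage genes were seen in every muscle. Their sum ran from 34.1 CPM in control 8 through a median of 69.2 CPM to 153 CPM in control 4, led by Mrc1, a mannose receptor of resident macrophages, at 23.7 ± 13.3 CPM, and Csf1r, the receptor for their growth factor, at 21.5 ± 9.46 CPM. The neutrophil list was at 2.47 to 14.7 CPM in 9 muscles and at 114 CPM in control 3. There Csf3r, the receptor for granulocyte colony-stimulating factor, had 81.8 CPM against at most 8.38 CPM elsewhere, and the granule proteins S100a8 and S100a9 had 6.88 and 8.94 CPM. The dendritic list was highest in the same muscle, at 23.7 CPM, with 6.88 CPM in the next. T and natural killer cell genes stayed at 5.08 CPM or less in sum.

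Antibody transcripts differed widely between muscles. Igkc, the constant part of the kappa light chain, had 180 CPM in control 1, 171 in control 6, 103 in control 3 and 95.5 in control 7. Controls 4 and 9 had 40.4 and 28.9 CPM, and there were only 5.27, 3.48, 1.41 and 2.11 CPM in controls 2, 5, 8 and 10. Ighm, the heavy chain of IgM, ranged from 75.3 to 521 CPM with its highest value in control 6. Cd79a, Cd79b and Ms4a1, which mark B cells, had at most 2.83 CPM in any muscle. Antibody genes form families with like sequences, so the division of reads among them is uncertain.

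Haemoglobin and tissues outside muscle were used as checks of the dissection. Hbb-bs, an adult beta globin, had 69.4 CPM in control 5, a median of 153 CPM and 887 CPM in control 3, and the red blood cell list summed to 1572 CPM there. Hba-a1 and Hba-a2, and likewise Hbb-bs and Hbb-bt, are close copies whose reads may be divided. Of the liver genes, Alb had at most 0.688 CPM and Apoa1 and Serpina1a had no count in any library. The skin keratin Krt5 also had none, and 3 counts, the upper limit that a count of 0 allows, correspond to 0.131 to 0.226 CPM per library for counting error only. Genes of the Y chromosome were found in every muscle, and Xist had 0.12 ± 0.09 CPM, as in male tissue.

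**Figure D3:**
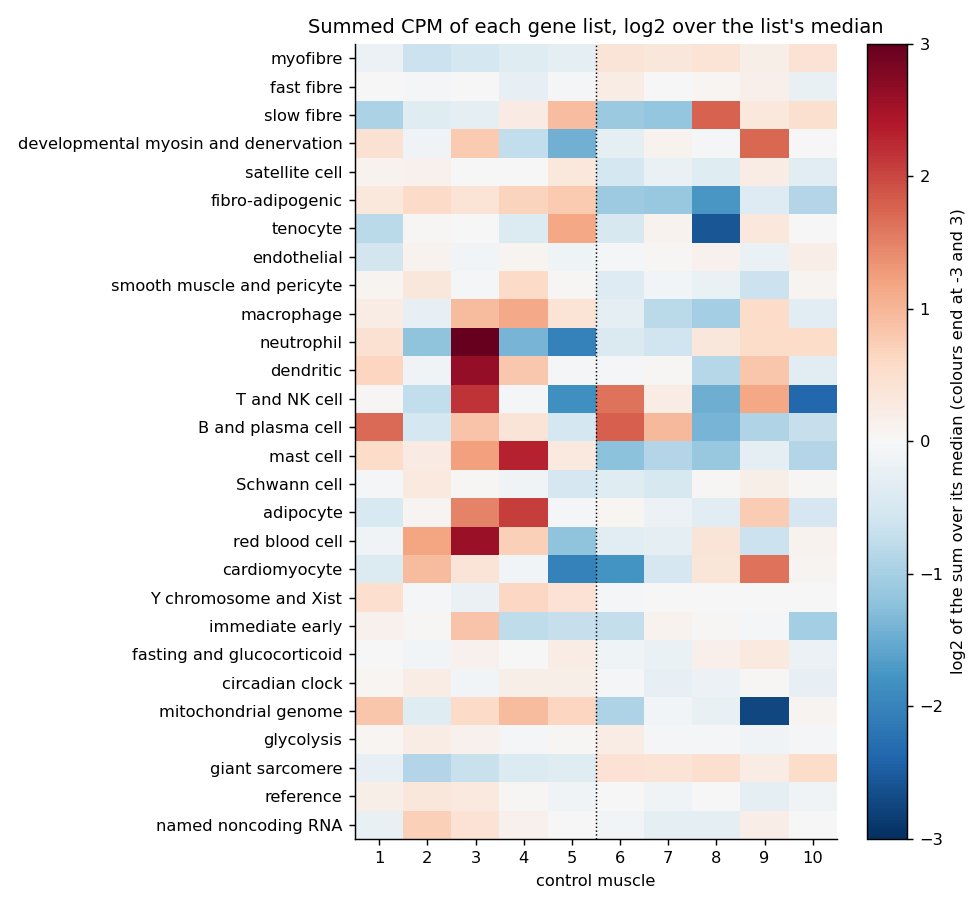
Colours give the summed CPM of each gene list in each control muscle as log2 over that list's median, for lists with a median sum of at least 1 CPM. Control 3 stands out for neutrophil and red blood cell genes, control 4 for adipocyte and mast cell genes, control 8 for slow fibre genes and control 9 for the developmental list and, as its lowest value, the mitochondrial genome.

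Control 9 was marked by genes that muscle uses in development or after losing its nerve. Myh3, the embryonic myosin, had 27.2 CPM there, with 10.5 CPM in control 2 and less elsewhere. Myog, the differentiation factor myogenin, had 16.1 CPM, with 11 CPM again in control 2. Gadd45a, a stress gene induced by denervation, reached 237 CPM against a median of 52.1 CPM. Chrna1 and Chrnd, subunits of the acetylcholine receptor, were highest there too, at 45.6 and 9.71 CPM. Ncam1, an adhesion molecule of denervated fibres, had 15.2 CPM in control 9 and 14.9 in control 10. It was lower in every library from 1 to 5 than in any from 6 to 10, as were 0.249% of all genes, so it does not mark control 9 alone. The list of 10 genes summed to 534 CPM in control 9 and to 60.0 CPM in control 5, with a median of 163 CPM. Control 9 is also the muscle with the lowest mitochondrial share, and whether the 2 are linked was not tested.

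Immediate early genes, which respond within minutes to stretch, injury or signals, differed between muscles. All 12 exceeded 5 CPM on average, and their median CV was 0.696. Fos ran from 2.85 CPM in control 5 through a median of 17.4 CPM to 74.5 CPM in control 3. Egr1 had 129 CPM in control 3, 111 in control 7 and 97.4 in control 8, but 4.05 CPM in control 5. The metallothioneins Mt1 and Mt2, which bind metals and rise with glucocorticoids, were high in the same muscles: Mt1 had 304, 138 and 191 CPM in controls 3, 7 and 8, and 14.1 CPM in control 5. Jun was steadier, with 80.9 to 195 CPM. Nr4a1, a nuclear receptor, was higher in every library from 1 to 5 than in any from 6 to 10. It was 1 of 12 genes, a share near the 8.36% of all genes, and its ranges overlapped with TMM scaling.

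Fasting genes were well expressed. Pdk4, which turns off the entry of pyruvate into the mitochondrion, had 1141 ± 197 CPM with a CV of 0.173. Fbxo32 and Trim63, the ubiquitin ligases of atrophy, had 742 ± 280 and 470 ± 203 CPM, and both peaked in control 9, at 1246 and 884 CPM. The median CV of the 12 genes of that list was 0.423, and that of their sum 0.117.

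The clock genes varied about as much as genes in general. Above 5 CPM their median CV was 0.213, against 0.237 over all 9622 genes. All of the 13 but Npas2, at 3.12 ± 0.89 CPM, passed that level. Nr1d1 and Nr1d2, repressors of the clock, had 137 ± 28.4 and 128 ± 26.8 CPM. Dbp, an output gene with a wide daily swing, was the most variable, from 30.2 CPM in control 8 to 162 CPM in control 2. Per1, a repressor induced by light and glucocorticoids, lay at 65.7 to 126 CPM. Per2, Per3 and Cry2, of the same repressor complex, had 23.9 ± 4.12, 49.5 ± 12.7 and 65.2 ± 9.19 CPM. Their activator Clock ranged from 29.4 to 66.1 CPM, and its partner Arntl, the gene of BMAL1, from 17.2 to 37.8 CPM.

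RNAs that encode no protein were led by the nuclear transcript Malat1, at 10752 ± 2026 CPM or 1.08% of the counts. mt-Rnr2, the large ribosomal RNA of the mitochondrion, followed at 9675 ± 5222 CPM, although the libraries had been depleted of ribosomal RNA, so its level also reflects that step. Mitochondrial ribosomal RNA held 1.15% to 1.78% of the counts in libraries 1 to 5 and 0.275% to 0.804% in libraries 6 to 10. Rpph1, the RNA of ribonuclease P, ranged from 739 CPM in control 10 to 7417 CPM in control 2, with 5913 CPM in control 3. Neat1, the scaffold of paraspeckles, had 2405 ± 775 CPM, with its lowest value in control 1 and its highest, 3925 CPM, in control 6. Long intergenic RNAs as a class held 1.58% ± 0.217 of the counts, and 65 of them exceeded 5 CPM. Of 9622 genes at that level, 321 were not protein-coding or were not in the annotation used here.

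The imprinted and host gene RNAs were lower. H19, from the Igf2 locus, had 203 ± 97.6 CPM and its highest value, 437 CPM, in control 10. Kcnq1ot1 had 225 ± 52.6 CPM, but it overlaps other genes, and how strand entered the counting is not given in the sources used here. 1700020I14Rik, an RNA without an established role, had 590 ± 120 CPM, 2900097C17Rik, also known as Norad, 285 ± 73.2 CPM and Lncpint 131 ± 25.4 CPM. Meg3, of the Dlk1 locus, ranged from 4.66 to 19.9 CPM, and its neighbours Rian and Mirg had 7.42 ± 3.92 and 0.84 ± 0.51 CPM. Meg3 and Rian, 2 of the 11 named noncoding RNAs above 5 CPM, were higher in every library from 1 to 5 than in any from 6 to 10, against 8.36% of all genes. With TMM scaling the ranges of Rian overlapped. Mir22hg had 24.7 ± 7.66 CPM, Gas5 24.2 ± 5.82 and Rmrp 2.63 ± 2.32 CPM.

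Some short RNAs were high in the same muscles. Rn7s6, annotated among miscellaneous RNAs, had 1126 CPM in control 2 and 871 CPM in control 3, against 67.5 to 392 CPM in the other 8 muscles. Gm26461, annotated as another short RNA, had 230 and 169 CPM in the same 2 muscles and 6.05 to 56.6 CPM in the rest. Its transcript matched that of Rn7s6 at 95% over 201 bases, so its reads may belong to that gene. The muscles with the most of these RNAs were also those with the most Rpph1 and Pvalb.

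Over all 9622 genes the median CV between the 10 muscles was 0.237, with quartiles of 0.171 and 0.336. Counting error alone would give a median CV of 0.051, so the spread between muscles was mostly larger than that of counting, and 394 genes had a CV under 2 times their counting error. A CV over 0.5 was found in 788 genes, or 8.19%, and over 1 in 45 genes. The spread fell with level, from a median CV of 0.299 in the lowest of 4 equal groups of genes by mean CPM to 0.202 in the highest.

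**Figure D4:**
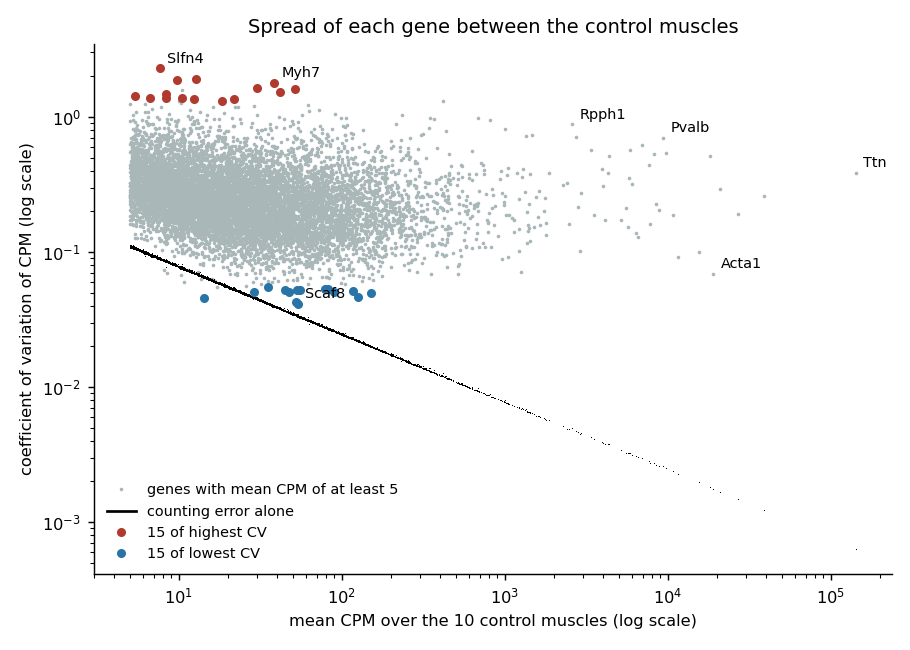
Each grey point is 1 of 9622 genes, with its mean CPM over the 10 control muscles and its coefficient of variation, both on log scales, and the black line is the spread expected from counting alone. The 15 most variable genes with a symbol lie between 1.32 and 2.30, and the 15 least variable between 0.042 and 0.055.

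Control 3 held the highest value of 9 of the 15 most variable genes with a symbol, and of 13.9% of all 9622 genes. Slfn4, a gene of myeloid cells induced by interferon, had 57.1 CPM in control 3, 5.59 CPM in control 9 and less in the others, with a CV of 2.30. Csf3r, described above, had a CV of 1.92 and Gm12185, a member of the interferon-induced GTPases, 1.88. Of the same family, Iigp1 had 169 CPM and Gm4841 278 CPM in control 3, with 36.4 and 90.1 CPM in control 9 as the next highest values. Bcl3, a partner of NF-kappaB, had 40.3 CPM there against at most 8.38 CPM elsewhere, and Hmox1, which degrades haem, 86.8 CPM against at most 16.6 CPM. Hba-a2 and Hbb-bt were highest in control 3 and second in control 2. In the other 9 muscles the medians of Slfn4, Gm12185, Bcl3 and Csf3r were 1.78, 3.33, 4.29 and 4.74 CPM, below the limit of 5 CPM. Slfn4, with at most 5.59 CPM there, and also Gm12185 and Bcl3 passed the limit of a mean of 5 CPM only through control 3. Their high CVs and their highest muscle are thus not independent of that limit, and neither is the count of 9 of 15.

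Without control 3 the CV of Hmox1 was 0.311 in place of 1.32, that of Bcl3 0.529, that of Csf3r 0.578 and that of Iigp1 0.592. Slfn4, Gm12185 and Gm4841 kept CVs of 0.960, 0.939 and 0.956, with control 9 then the highest muscle, and Hba-a2 and Hbb-bt kept 0.960 and 1.15. Of the 15 genes, 6 had a CV over 1 without their highest muscle and 2 a CV under 0.5.

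The remaining variable genes followed other muscles. Myh7 and Tnnt1 had CVs of 1.79 and 1.42, and without control 8 these were still 1.53 and 1.21. Igkv3-2 and Ighg2b, parts of antibodies, had CVs of 1.47 and 1.39. Ighg2b had 30.0 CPM in control 4 and no count in control 10, whereas Igkv3-2 had 35.9 CPM in control 6 and no count in controls 2 and 10. Tnnt1 and Ighg2b passed the limit of a mean of 5 CPM only through their highest muscles, controls 8 and 4. Pck1, the enzyme that starts gluconeogenesis and is used by fat cells to store lipid, had 60.0 CPM in control 4, the muscle with the most Adipoq, and its CV without that muscle was 0.444. Vdac3-ps1, a pseudogene, had 39.6 CPM in control 5, 26.3 in control 10, 25.7 in control 8 and at most 2.89 CPM in the other 7 muscles. Its reads may come from related genes.

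Counted over the 200 most variable genes, 81 had their highest value in control 3, 58 in control 2, 19 in control 4, 16 in control 9 and 7 in control 8. Over all 9622 genes, control 2 held the highest value of 2979, or 31.0%, control 3 of 1341, or 13.9%, and control 6 of 74. The shares of controls 4, 9 and 8 were 15.8%, 13.2% and 2.62%. Among the 200 genes, the parts of controls 2, 4 and 9 were thus not above their shares of all genes. A gene high in a single muscle has a high CV and can pass the limit of 5 CPM through that muscle. The counts over the 200 genes are therefore not independent of how these genes were chosen. Controls 1 to 5 each held the highest value of at least 491 genes. Of controls 6 to 10 this was so of control 9 alone, with 1272 genes.

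The least variable genes by CPM had moderate levels, and which genes these are depended on the scaling. With TMM the CVs of the 15 genes lay between 0.075 and 0.133, 14 of them over 1.5 times the CV by CPM, and 0 of them were still among the 15 least variable. By CPM, Scaf8, a factor that binds the tail of RNA polymerase, had 53.7 ± 2.23 CPM and a CV of 0.042. Gnl3l, a nucleolar GTPase, had 52.5 ± 2.25 CPM, Cux1, a transcription factor, 152 ± 7.54 CPM, and Adipor2, a receptor of adiponectin, 125 ± 5.80 CPM. Vps11, of vesicle transport, Celf1, a splicing regulator, Rrn3, which helps RNA polymerase I start, and Eif2ak1, a kinase of translation, had CVs of 0.050 to 0.053. The others were Nit1, Bcas3, Specc1l, Metap1, Tox4, Dnajb12 and C1qbp, and the mean of the 15 genes lay between 14.2 and 152 CPM. Their ratios of mean CPM between libraries 1 to 5 and 6 to 10 were 0.97 to 1.06. For 10 of the 15 the CV was under 2 times the counting error, and that of Nit1 was below it, so the order among them cannot be told.

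Genes often used as references differed widely in their spread. Of 16 such genes, 7 had a CV below the median of all genes. Pgk1 was the steadiest, with a CV of 0.095 that 3.19% of all genes reached or fell below, followed by Rplp0 at 0.124 and Sdha at 0.138. Gapdh had 5154 ± 895 CPM and a CV of 0.174, Rpl32 0.275, Hprt 0.353 and Ppia 0.352. Actb, the nonmuscle actin, had a CV of 0.364, with 855 CPM in control 3 and 455 CPM in the next highest muscle. B2m, the light chain of class I antigen presentation, had a CV of 0.700, larger than that of 97.6% of the genes.

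Libraries 1 to 5 and 6 to 10 differed in level for a set of genes. Of 9622 genes, 804 (8.36%) were higher in every library from 1 to 5 than in any from 6 to 10, and 24 (0.249%) were lower. The median ratio of mean CPM between the ranges was 1.18 over all genes. Ttn had a mean of 92906 CPM in the first range and 193094 CPM in the second, and the more counts it takes, the lower the CPM of all other genes. With TMM normalization, which adjusts for such shifts of the whole, the counts were 299 higher and 215 lower, and with totals that leave out Ttn and the mitochondrial genome they were 520 and 67. In edgeR's quasi-likelihood test with TMM, 179 genes (1.86%) passed a 5% false discovery rate, 155 higher and 24 lower in libraries 1 to 5. Of these, 146 and 17 also did not overlap. The ranges were known from earlier results to differ in Ttn, so these counts describe them and are no independent test.

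Ttn showed the difference most plainly. Its level in controls 1 to 5 was 110264, 70186, 84468, 95739 and 103874 CPM, and in controls 6 to 10 it was 198914, 189266, 202054, 163816 and 211419 CPM. Its ratio was 0.48, and the ranges were far apart. Myom2, a protein of the M line of the sarcomere, had a ratio of 0.63, with 994 to 1404 CPM in the first range and 1747 to 2051 CPM in the second. Ncam1, Myo10, a myosin of filopodia, Chrne, the adult subunit of the acetylcholine receptor, and Sptb, a spectrin, had ratios of 0.64, 0.69, 0.70 and 0.70. Herc2, a giant ubiquitin ligase, Igf2r, a receptor that clears IGF2, the imprinted RNA Peg13 and Snrnp200, a helicase of the spliceosome, had ratios of 0.72 to 0.74. Of the 8 genes of the giant sarcomere list, Ttn, Myom1 and Myom2 did not overlap and were lower in libraries 1 to 5, against 0.249% of all genes. The others overlapped, among them Neb, Flnc, Nrap and Xirp2.

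The genes higher in libraries 1 to 5 with the largest ratios were short or mitochondrial. Gm26461 had the largest ratio, 7.51, followed by Gm13339 at 6.69 and mt-Atp8 at 6.41. mt-Tl1 and mt-Tm, transfer RNAs of the mitochondrion, had ratios of 5.59 and 5.44, Gm13341 5.16, mt-Nd4l 5.08, Rn7s6 4.70, mt-Atp6 4.55 and Gm10925 4.41. Several of these are near-identical copies. Gm10925 matches mt-Atp6 and Gm13339 matches mt-Nd2, as shown above, and Gm13341 matched mt-Co2 at 95.9% over 684 aligned bases. Gm26461 matched Rn7s6 at 95% over 201 bases. Genes of such a pair are not separate observations. Of 19 mitochondrial genes above 5 CPM, 11 did not overlap and were higher in libraries 1 to 5, against 8.36% of all genes. These genes belong to 1 genome, so they are not separate observations. Among nuclear genes of cell type lists, Pi16 and Lum, both of fibroblasts, had ratios of 4.07 and 4.31.

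Gene length moved with these ratios. The 24 genes lower in libraries 1 to 5 had a median merged exon length of 10193 bases, the 804 higher genes 4263 bases, and all genes 4872 bases. Of the 24, 21 were longer than 5000 bases, against 48.4% of all genes. In the shortest of 10 equal groups of genes by length the median ratio was 1.37 and 17.5% were higher in libraries 1 to 5. In the longest group the median ratio was 1.13 and 8.01% were higher, close to the 1.18 and 8.36% of all genes. The 24 lower genes also had a higher level, with a median of 186 CPM against 20.5 CPM for the 804 and 22.7 CPM for overlapping genes. Their length and level cannot be told apart here. The part of RNA quality, of library preparation or of the muscles themselves in this was not tested.

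**Figure D5:**
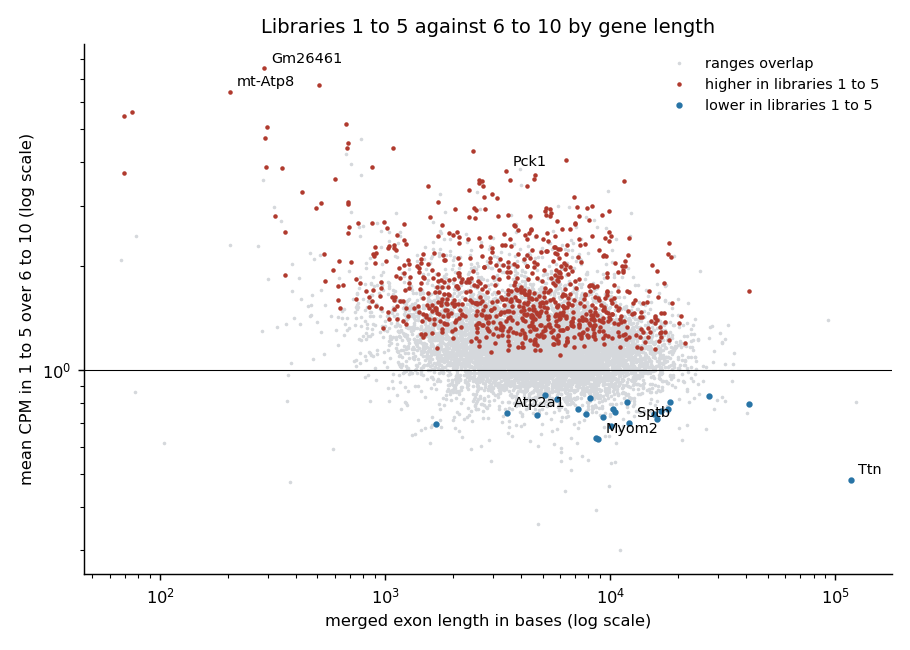
Each point is a gene with its merged exon length and the ratio of its mean CPM in libraries 1 to 5 over that in libraries 6 to 10, both on log scales, with red for 804 genes that were higher and blue for 24 that were lower without overlap. The line marks a ratio of 1, and Ttn is the point at the far right with a ratio of 0.48.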

How the data were processed

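Raw counts of the 10 control muscles were used. The deposited values are whole-number counts per Ensembl gene, 1 column per muscle, without normalization. The authors prepared stranded total RNA libraries depleted of ribosomal RNA and sequenced them as pairs of 150 bases. Their processing notes name cutadapt 1.16, STAR 2.7.9a, featureCounts 1.6.3, DESeq2 1.34.0 and the build GRCm39. The annotation release and the treatment of reads that match several places are not given in the sources used here.

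Counts were divided by the library total (CPM). The identifiers were matched to GENCODE M21 (GRCm38), which named 94.0% of them, with 98.6% to 99.6% of the counts of a library. 18 identifiers above 5 CPM were not in it, the highest with a mean of 4347 CPM. Lengths for TPM are merged exons of that annotation. Rn7sk, of the noncoding list, was not analysed here. A few members of the lists are not reported here, though list sums include them. Copies were aligned with blastn 2.17.0. Libraries 1 to 5 and 6 to 10 were compared by overlap of their CPM, and in edgeR 4.0.16 (R 4.3.3, quasi-likelihood test, TMM, Benjamini-Hochberg). The steps were tested on simulated data. RLE factors came from DESeq2 1.42.0.

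The genes named are the 10 highest by CPM and by TPM, the 15 most and 15 least variable, the 10 highest noncoding, the 10 largest ratios each way, and members of 30 lists. Members, lists and ranges were chosen with earlier results of these data known. Counting intervals and floors cover counting error only.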

Additional observations from a re-analysis of the deposited data

Results flagged for a closer look

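In 28 of 257 sets of values examined, the highest or lowest of the 10 muscles lay farther from its neighbour, relative to the whole range on the log2 scale, than a test for single outliers allows at its 95% level. Chance flags about 1 in 20 groups, but this number is no yardstick here. The genes examined include those chosen for the largest spread between the same muscles, and genes of a list were examined along with their sum.

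Control 3 was the highest muscle by this measure for 10 of them. These were the neutrophil list at 114 CPM (14.7 in the next muscle), the dendritic list at 23.7 CPM (6.88), Csf3r at 81.8 CPM, Slfn4 at 57.1 CPM, Iigp1 at 169 CPM, Bcl3 at 40.3 CPM, Hmox1 at 86.8 CPM, Actb at 855 CPM, Ly6a, a surface protein induced by interferon, at 71.1 CPM (40.4), and Ier3, an immediate early gene, at 20.5 CPM (8.50). In control 4 the highest values were Adipoq at 42.3 CPM, Pck1 at 60.0 CPM and the keratinocyte list at 1.10 CPM.

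Control 9 was the lowest muscle for the mitochondrial genome list at 7002 CPM (24403 in the next muscle), for mt-Co1 at 2773 CPM, mt-Cytb at 919 CPM, mt-Nd2 at 404 CPM and mt-Nd4 at 276 CPM, and the highest for Sptb at 848 CPM and Igf2r at 264 CPM. Control 8 was the highest for the share of Myh7 at 0.309% of adult myosin, and the lowest for the tenocyte list at 20.6 CPM, Fmod at 4.70 CPM, Thbs4, a tendon matrix protein, at 9.39 CPM, Tfrc, the transferrin receptor, at 27.2 CPM and Metap1 at 48.6 CPM. Ppia was lowest in control 2 at 17.2 CPM (39.4), and Aldoa highest in control 6 at 13816 CPM (11885).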

How the results depend on the processing

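No paired analysis was possible because the report describes 1 group, the control muscles, and compares no treatment. The counts of genes without overlap, 804 higher and 24 lower in libraries 1 to 5, became 299 and 215 with TMM, 307 and 221 with RLE factors, and 520 and 67 with totals that leave out Ttn and the mitochondrial genome. At a mean of at least 20 CPM 410 genes were higher, and edgeR called 155. Leaving out 1 muscle at a time gave 859 to 1529 higher and 26 to 54 lower genes. The higher count rose over 1.5 times without control 2 (1316) or control 9 (1529), and the lower count without control 1 (39), 2 (54), 3 (44), 9 (39) or 10 (40). Without controls 2 and 9 together, chosen after seeing the data, the counts were 2118 and 73. Genes with a CV over 0.5 numbered 1986 at 1 CPM, 305 at 20 CPM and 351 within libraries 6 to 10. Of the 100 most variable genes, 28 were shared at 1 CPM, 38 at 20 CPM, 38 within libraries 6 to 10 and 63 by the SD of log2 CPM. Per length, Ttn held 0.484%, the mitochondrial genome 16.9%, protein-coding genes 90.5% and Malat1 0.567%. Malat1 held 1.34% of totals without Ttn and the mitochondrial genome. For the 20 genes named for the largest ratios, all 313 ratios under these settings kept their direction without overlap. These genes were chosen for not overlapping, so leaving out muscles or changing the CPM limit could not have made them overlap. Only TMM, RLE and the totals that leave out Ttn and the mitochondrial genome could have done so. Among other named genes, Nr4a1, Rian and Tbp overlapped with TMM and RLE, and Meg3, Pdgfra, Lum, Pi16 and Myom1 did not. For the 15 most and 15 least variable genes, 447 of 499 CVs stayed within 1.5 times and 52 moved, among them those of 14 of the 15 least variable genes with TMM and with RLE. The 447 include the limits of 1 and 20 CPM, which leave the CV of a gene unchanged and could not move it. Beyond settings whose construction shows it (fewer genes or muscles), the cause was not tested. Library depth limits genes near the floor of 3 counts.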
